A study of Mus musculus with 2 samples.

Results

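The genes described here are Mitf, Sox10, Pax3 and Tfap2a, 4 transcription factors of the melanocyte lineage, followed in 2 libraries of single B16 F10 cells. They were picked by symbol, with earlier results of these data known, and are 4 of 32285 genes in the count matrix and of 7849 genes with a mean level of at least 10 UMIs in 1000000 (CPM), here called measured. A unique molecular identifier (UMI) marks 1 captured RNA molecule.

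B16 F10 is a pigmented mouse melanoma line, and the labels give its cell type as melanocytes. One culture condition was used: very sparse growth for 7 days in serum-supplemented DMEM, with no genetic change or drug named. Cells were then sorted by side scatter, the measure of pigment, into a high pigment and a low pigment fraction, and each fraction gave 1 droplet library of the 3′ ends of its RNA. The comparison asks how more and less pigmented cells of 1 line differ. High pigment cells numbered 2136, with 28848691 UMIs in total, between 7514 and 38940 in a cell (median 12557), and a median mitochondrial share of 5.07%. Low pigment cells numbered 1900, with 32437194 UMIs in total, between 7597 and 46001 in a cell (median 16019.5), and a median mitochondrial share of 5.62%. With 1 library per group there is no replicate check and no test. Intervals are 95% intervals that cover counting error only, not variation between cells or differences between cultures, sorts or library preparations. For a gene such as Mitf, whose counts varied between cells beyond counting noise, they are therefore too narrow, most of all in small groups of cells. All 10 melanocyte markers looked up were measured in both libraries. Fibroblast markers summed to 62 UMIs in high pigment and 27 in low pigment cells, leukocyte markers to 54 and 131, keratinocyte markers to 2 and 8, and erythroid markers to 0 and 5. Endothelial markers summed to 86 UMIs in high pigment and 732 in low pigment cells. Of these, Pecam1 alone gave 81 and 726, and Emcn was at 0 in both.

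MITF is a basic helix-loop-helix leucine zipper factor that binds E-boxes, and the longer M-box form of them, in front of pigment genes such as Tyr, Tyrp1 and Dct. It also acts on genes of survival, the cell cycle and metabolism. SOX10, an HMG box factor, and PAX3, a paired box factor, are neural crest regulators that activate the melanocyte promoter of Mitf, which also carries a cyclic AMP response element (CRE) bound by CREB. SOX10 also acts directly on Dct. PAX3 is further known for holding back Dct until it is displaced, and TFAP2A (AP-2α) shares many regulatory elements with MITF in melanocytes.

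RefSeq (build GRCm38.p6) lists 3 Mitf starts, and the most downstream is printed because it lies at the melanocyte-specific first exon. The promoters of Dct, Tyrp1, Mlph and Tyr are shown beside it as known or candidate targets whose RNA is described below. Each window is the 250 bases before the start, 5′ to 3′ on the gene's strand. Capitals mark matches on either strand to CRE TGACGTCA, E-box CACGTG, M-box core CATGTG, SOX core ACAAAG and AP-2 GCCNNNGGC.
Mitf, downstream start, chr6:97991533-97991782, plus strand: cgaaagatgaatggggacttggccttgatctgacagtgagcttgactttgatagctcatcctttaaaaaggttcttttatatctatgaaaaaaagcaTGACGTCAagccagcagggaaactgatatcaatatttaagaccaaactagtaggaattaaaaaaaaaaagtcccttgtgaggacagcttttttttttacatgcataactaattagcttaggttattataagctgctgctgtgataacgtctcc
Dct, chr14:118052247-118052496, minus strand: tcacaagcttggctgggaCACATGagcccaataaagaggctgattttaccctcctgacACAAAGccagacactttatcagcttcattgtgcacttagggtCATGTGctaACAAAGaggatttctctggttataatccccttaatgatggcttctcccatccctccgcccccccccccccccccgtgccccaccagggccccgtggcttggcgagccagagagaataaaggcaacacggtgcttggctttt
Tyrp1, chr4:80833963-80834212, plus strand: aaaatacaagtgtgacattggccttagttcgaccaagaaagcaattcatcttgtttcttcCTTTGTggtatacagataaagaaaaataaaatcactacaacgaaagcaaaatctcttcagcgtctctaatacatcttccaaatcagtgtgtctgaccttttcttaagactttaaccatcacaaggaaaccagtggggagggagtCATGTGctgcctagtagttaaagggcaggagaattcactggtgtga
Mlph, chr1:90914850-90915099, plus strand: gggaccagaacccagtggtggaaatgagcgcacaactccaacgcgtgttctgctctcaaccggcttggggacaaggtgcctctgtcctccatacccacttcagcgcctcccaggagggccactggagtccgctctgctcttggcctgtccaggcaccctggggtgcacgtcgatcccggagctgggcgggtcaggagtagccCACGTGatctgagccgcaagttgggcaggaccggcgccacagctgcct
Tyr, chr7:87493513-87493762, minus strand: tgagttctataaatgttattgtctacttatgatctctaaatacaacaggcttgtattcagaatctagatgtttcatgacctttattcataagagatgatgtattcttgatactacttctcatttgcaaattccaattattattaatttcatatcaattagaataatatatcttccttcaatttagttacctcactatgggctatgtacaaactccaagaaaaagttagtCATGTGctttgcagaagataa
The CRE in the Mitf window begins at base -153 from the start, and the CRE letters occur in 1.55% of the 32851 promoters searched. The windows of the upstream Mitf starts and of Tfap2a hold no match to these motifs. No promoter was matched for Sox10 and Pax3. Of 18 pigment genes looked up, 14 had a promoter in the table, and since some have several starts they gave 18 windows. The M-box core occurred in 10 of these 18 windows, against 12.3% of all promoters. In Dct it occurred at -232 and -150, in Tyrp1 at -46 and in Tyr at -21. The SOX core occurred in 5 of the 18 windows, against 16.5% of all promoters, and in Dct at -192 and -141. The E-box occurred in 4 of the 18, against 6.02% of all promoters, and in Mlph at -48. The AP-2 letters occurred in 3 of the 18, a share near the 13.7% of all promoters. A match of letters is not evidence that a factor binds there.

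Mitf, Sox10 and Tfap2a made up a larger share of RNA in high pigment cells, and Pax3 a slightly smaller one. Genes were called higher at 25% above the low pigment level or more, and lower at 20% below it or more, the same fold either way. Of the 4 genes, 3 were called higher, beside 10.9% of measured genes, and 0 were called lower, beside 23.4%. The same 3 were higher by at least 1.5-fold, beside 3.25% of measured genes, and 0 lower by that size, beside 8.08%. Gene positions below are from the GENCODE annotation of GRCm38, which is mm10. The median measured gene had a log2 ratio of high over low pigment of -0.08.

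Mitf (ENSMUSG00000035158, chr6:97807052-98021349, plus strand) had 14595 UMIs in high pigment cells, or 506 CPM (interval 498 to 514), against 7178 UMIs, or 221 CPM (216 to 226), in low pigment cells. The ratio was 2.29 (2.22 to 2.35), larger than in 99.7% of measured genes. Reads from the 3′ end do not tell the Mitf isoforms apart, so the value is the sum over all its promoters. Sox10 (ENSMUSG00000033006, chr15:79154908-79165240, minus strand) had 6427 UMIs and 223 CPM in high pigment cells, against 3833 UMIs and 118 CPM in low pigment cells. Its ratio was 1.89 (1.81 to 1.96), larger than in 99.1% of measured genes. Tfap2a (ENSMUSG00000021359, chr13:40715302-40738376, minus strand) had 1637 UMIs and 56.7 CPM in high pigment cells, against 1223 UMIs and 37.7 CPM in low pigment cells. Its ratio was 1.51 (1.40 to 1.62), larger than in 96.8% of measured genes. Pax3 (ENSMUSG00000004872, chr1:78101267-78197134, minus strand) had 7788 UMIs and 270 CPM in high pigment cells, against 9918 UMIs and 306 CPM in low pigment cells. The ratio was 0.883 (0.857 to 0.910), and 37.6% of measured genes had a smaller one. So Pax3 lay near the middle of all genes, while the other 3 lay near the upper end.

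Cells of the low pigment library had more UMIs, so per-cell numbers depend on scaling. As mean UMIs per cell with no scaling, Mitf had 6.83 in high pigment and 3.78 in low pigment cells. The direction for each of the 4 genes was the same with and without scaling, and the log2 ratio without it was 0.85 for Mitf, 0.58 for Sox10, 0.25 for Tfap2a and -0.52 for Pax3.

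The Mitf difference was spread over the distribution of cells, not carried by a few of them. Each cell was thinned to 7500 UMIs to compare cells at one depth. Thinned high pigment cells had a median of 3 Mitf UMIs (10th to 90th percentile 1 to 8, highest 24), and low pigment cells a median of 1 (0 to 4, highest 17). A count above the low pigment median was found in 76.5% of high pigment cells and in 40.9% of low pigment cells themselves, so the distributions overlapped widely. Mitf was detected in 90.3% of thinned high pigment cells and 69.3% of thinned low pigment cells (95.6% and 87.2% before thinning). After thinning, Sox10 was detected in 75.1% of high pigment and 55.0% of low pigment cells, Tfap2a in 34.3% of high pigment and 26.0% of low pigment cells, and Pax3 in 83.8% of high pigment and 87.0% of low pigment cells. No cell type lacking these genes was present to set the background from free RNA, so the shares are of cells with a UMI, not of cells expressing the gene.

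**Figure D1:**
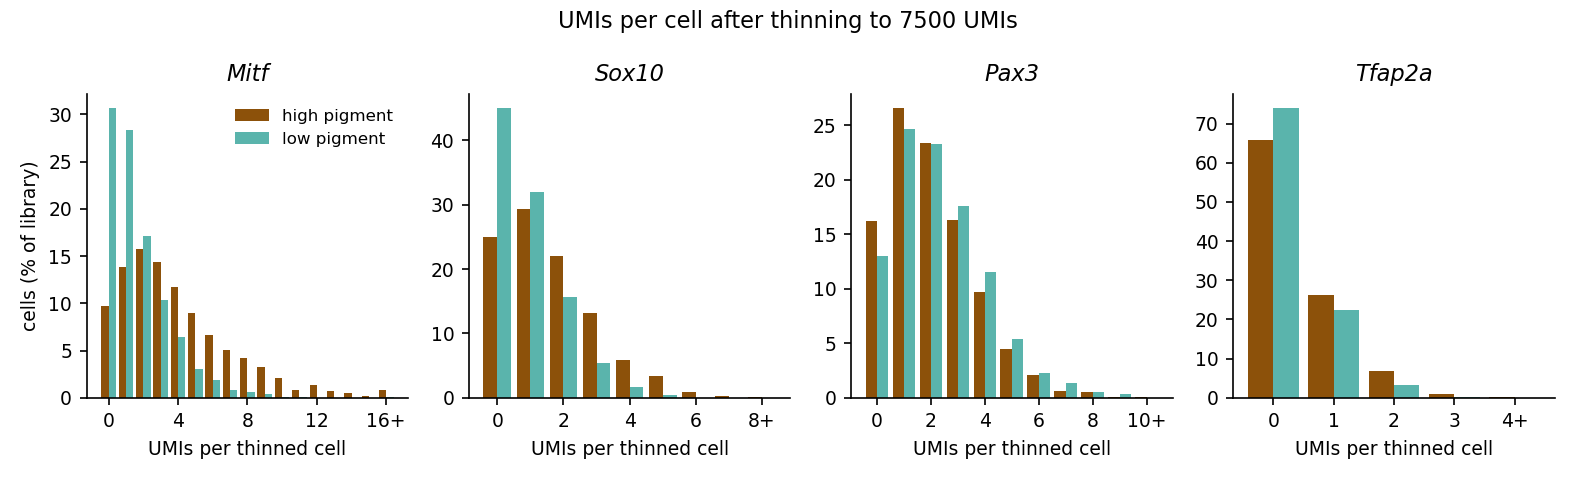
Percent of cells in each library (vertical axis) by UMIs of the gene per cell after thinning to 7500 UMIs (horizontal axis), for high pigment (brown) and low pigment (teal) cells. Cells with 0 Mitf UMIs are 9.74% of the high pigment and 30.7% of the low pigment library, and the 2 Pax3 distributions nearly coincide.

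All 4 factors were found together in 21.3% of thinned high pigment cells and 9.53% of thinned low pigment cells. Mitf, Sox10 and Pax3 were found together in 58.2% and 34.9%, and none of these 3 in 0.749% and 2.32%. Cells with none of the 3 were thus a small part of either library. The part of variance beyond Poisson counting noise was largest for Mitf, at 62.8% in thinned high pigment cells and 50.1% in low pigment cells. This part rises with a gene's mean count, so it does not rank how much genes or libraries of unlike level vary. For Sox10 this part was 23.2% and 13.7%, and for Pax3 22.1% and 20.6%. For Tfap2a it was 4.95% and -1.34%, so its spread was close to counting noise. The authors' phases accounted for at most 2.99%, and their clusters for at most 3.45%, of the variance of any of the 4 genes in either library. These are shares of all variance, counting noise included, so they understate the part of phase or cluster in the rest. For Sox10 in low pigment cells, 2.66% was between phases, while only 13.7% was beyond counting noise.

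Phase shares differed between the libraries: G1, S and G2M took 33.1%, 22.4% and 44.4% of high pigment cells and 39.4%, 37.1% and 23.5% of low pigment cells, by the authors' calls. Within each phase the same 3 genes were called higher in high pigment cells, beside 11.8% of genes in G1, 13.6% in S and 11.1% in G2M, and 0 were called lower, beside 25.9%, 22.2% and 26.1%. The log2 ratio of Mitf was 1.00 (0.93 to 1.07) in G1, 1.27 (1.19 to 1.36) in S and 1.17 (1.10 to 1.24) in G2M. On the linear scale, the Sox10 ratio was 1.70, 1.94 and 1.73, and the Tfap2a ratio 1.33, 1.46 and 1.65, in the same order. Pax3 was below 1 in all 3 phases, at 0.824, 0.940 and 0.816. The direction was thus the same in all 3 phases for each of the 4 genes.

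Across phases of 1 library, Mitf and Sox10 were lowest in S and Pax3 was highest in G2M. In high pigment cells Mitf had 519 CPM in G1, 429 in S and 531 in G2M, and in low pigment cells 260, 177 and 236. Its S over G1 ratio was 0.827 (0.787 to 0.868) in high pigment and 0.683 (0.645 to 0.722) in low pigment cells. Sox10 had 217, 179 and 245 CPM in high pigment cells and 128, 92.6 and 141 in low pigment cells, so in both libraries its order was G2M above G1 above S. Pax3 had 242, 263 and 290 CPM in high pigment cells and 293, 280 and 356 in low pigment cells. The low pigment G1 and S levels of Pax3 did not differ beyond counting error, with an S over G1 ratio of 0.953 (0.908 to 1.00). Tfap2a had 57.7, 49.4 and 59.3 CPM in high pigment cells and 43.5, 33.9 and 36.0 in low pigment cells. Its G1 and G2M levels in high pigment cells did not differ beyond counting error (G2M over G1 1.03, 0.919 to 1.15), nor did its S and G2M levels in low pigment cells (G2M over S 1.06, 0.918 to 1.23).

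**Figure D2:**
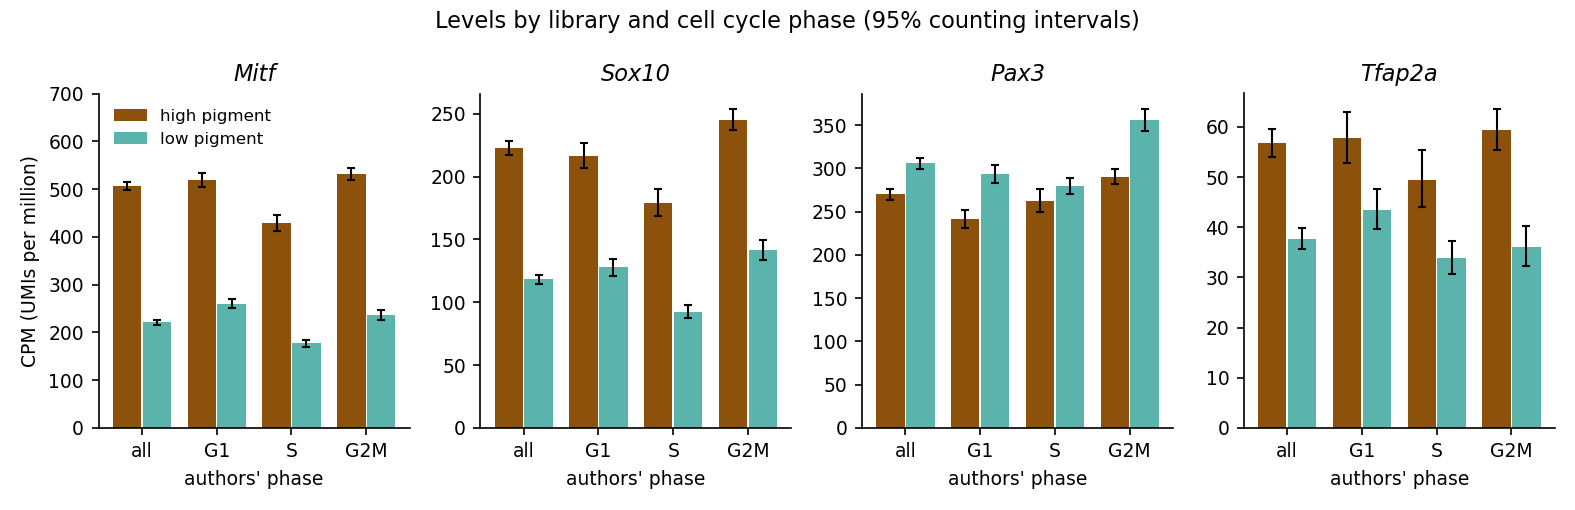
Level in CPM (vertical axis, from 0) of each gene over all cells and in the authors' G1, S and G2M cells, for high pigment (brown) and low pigment (teal) cells, with 95% counting intervals. The Mitf, Sox10 and Tfap2a bars are taller for high pigment cells in every phase, and the Pax3 bars for low pigment cells.

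The authors' 4 clusters nearly followed the libraries, and because they were made from all genes their levels are a description only. High pigment cells fell mainly in cluster 0 (1520 cells, 55.5% in G2M) and cluster 3 (523 cells, 89.1% in G1). Low pigment cells fell mainly in cluster 1 (1023 cells, 70.3% in G1) and cluster 2 (822 cells, 59.6% in S). Mitf had 473 CPM in cluster 0 and 667 in cluster 3 of the high pigment library, against 249 in cluster 1 and 190 in cluster 2 of the low pigment library. Sox10 had 234 and 195 CPM against 124 and 111. Tfap2a had 55.5 and 65.9 against 44.0 and 31.4, and Pax3 271 and 261 against 297 and 318, in the same order. Mitf and Sox10 therefore differed in which high pigment cluster was higher. This held among G1 cells alone: 466 G1 cells of cluster 3 had 654 CPM of Mitf and 197 of Sox10, whereas 217 G1 cells of cluster 0 had 352 CPM of Mitf and 249 of Sox10. The G1 cells of cluster 3 had a median of 9626 UMIs and those of cluster 0 a median of 16219, and the part of this depth gap was not tested. Few cells lay in a cluster of the other library. The 48 and 45 high pigment cells in clusters 1 and 2 had 381 and 391 CPM of Mitf, above the low pigment cells there. Their Sox10 levels, 144 (113 to 180) and 117 (90.2 to 150) CPM, were close to those of the low pigment cells. The 36 and 19 low pigment cells in clusters 0 and 3 had 284 and 341 CPM of Mitf and 139 and 161 of Sox10. These lay between the levels of the main low and high pigment clusters. Each of these groups was under the 50 cells required elsewhere.

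With phases pooled, the Sox10 difference moved with immediate early genes, and the Mitf difference did so less. Immediate early genes, such as Fos and Egr1, respond within minutes to many stimuli. In all, 19 of 22 were measured, 0 were called higher and 17 lower in high pigment cells, beside 10.9% and 23.4% of measured genes, and the list's median log2 ratio was -2.12. Klf6 (ratio 0.891), Myc (0.838) and Ier3 (0.670) had the largest ratios, and Fosb and Dusp1 were 6.86-fold and 7.95-fold lower. Summed over the list, thinned high pigment cells had a median of 6 UMIs and low pigment cells 25.

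Within the high pigment library Sox10 fell stepwise as these UMIs rose. Its level was 262 CPM in the 350 cells with 0 to 2 immediate early UMIs, 236 at 3 to 6, 212 at 7 to 12, 164 at 13 to 24 and 124 (98.8 to 153) in the 65 cells with 25 or more. Over high pigment cells its Spearman rho with the immediate early sum was -0.202 (n = 2136), and it was -0.176, -0.252 and -0.186 in G1, S and G2M cells. In the low pigment library Sox10 had 121, 115 and 119 CPM at 7 to 12, 13 to 24 and 25 or more UMIs, and rho was 0.0213 (n = 1900). Median depth also fell over these high pigment bins, to 9815 UMIs in the last against 13665.5 in the first. At like immediate early load the ratio of Sox10 in high over low pigment cells was 1.76 (1.53 to 2.03) at 7 to 12 UMIs, 1.42 (1.29 to 1.56) at 13 to 24 and 1.03 (0.823 to 1.28) at 25 or more.

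Mitf had 506, 525 and 409 CPM in the same high pigment bins, against 227, 210 and 231 CPM in low pigment cells. Its ratio was 2.23 (2.02 to 2.47), 2.51 (2.36 to 2.66) and 1.77, the last with a lower bound of 1.57. These bins pool phases in which Mitf ran in unlike directions. Over high pigment cells the rho of Mitf with the immediate early sum was -0.0596. It was 0.0651 in G1, -0.196 in S and -0.0909 in G2M cells. Of the 65 high pigment cells with 25 or more immediate early UMIs, 31 lay in the clusters of low pigment cells. In the 34 others, fewer than the 50 cells required elsewhere, Mitf had 518 CPM, a ratio of 2.25 (1.94 to 2.60) to low pigment cells of that bin, and Sox10 had 128 CPM, a ratio of 1.08 (0.791 to 1.43). Tfap2a ratios in the 3 bins were 1.32, 1.35 and 1.14 (0.770 to 1.64), and Pax3 ratios 0.960, 0.937 and 0.847. These bins were added after the data were seen, and bins of like total UMIs gave ratios of 1.88 to 2.79 for Mitf and 1.60 to 2.20 for Sox10.

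**Figure D3:**
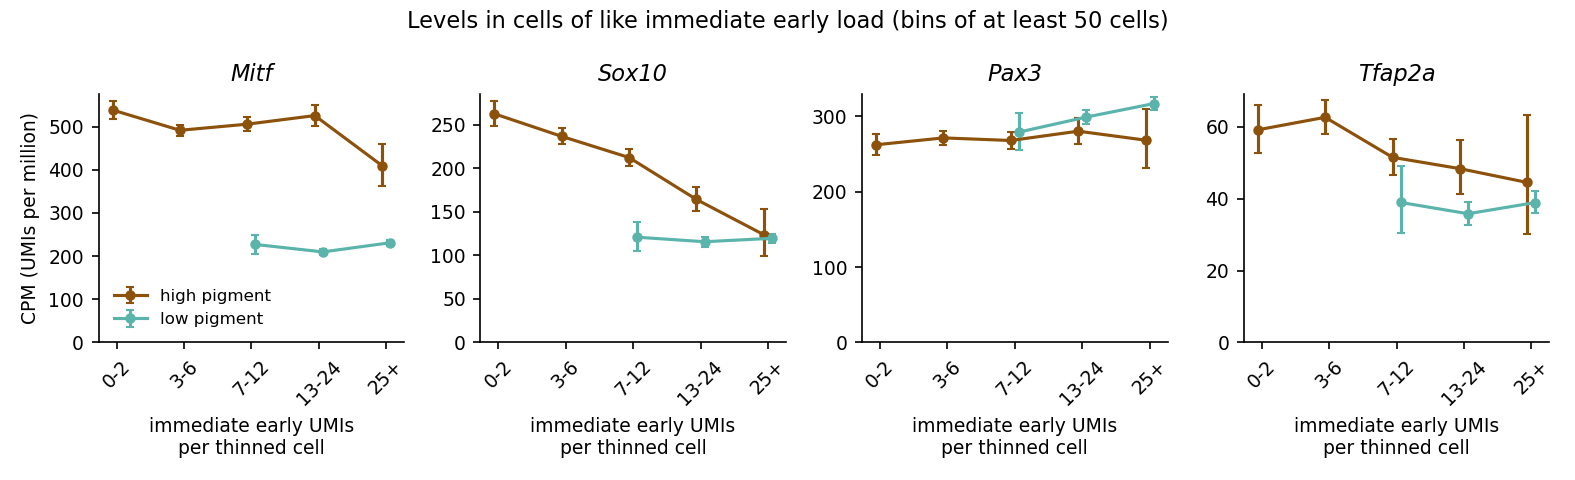
Level in CPM (vertical axis, from 0) of each gene in cells grouped by immediate early UMIs per thinned cell (horizontal axis), for high pigment (brown) and low pigment (teal) cells, with 95% counting intervals and groups of at least 50 cells. The 2 Sox10 lines meet at 25 or more UMIs, at 124 and 119 CPM, while the Mitf lines stay apart at 409 and 231 CPM.

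Within each library the rho between the 4 factors was low from cell to cell, and counting noise lowers such values. The 6 pairs were compared as Spearman rho over thinned cells of 1 library, which share their culture, sort and preparation. Mitf and Pax3 gave the largest rho, 0.131 in high pigment cells (n = 2136) and 0.129 in low pigment cells (n = 1900). It lay between 0.107 and 0.168 in every phase of either library, and was 0.115 and 0.130 with ranks adjusted for Malat1 and the mitochondrial percent. After the counting noise was taken off the variances, Pearson's r for this pair was 0.374 in high pigment cells (0.291 with another thinning) and 0.362 in low pigment cells (0.442 with another thinning). Mitf and Sox10 gave a rho of 0.0853 in high pigment and 0.0987 in low pigment cells, with 0.0173 in high pigment G1 cells. With counting noise taken off, their r was 0.169 in high pigment cells (0.223 with another thinning). In low pigment cells it was 0.313 (0.346 with another thinning). Sox10 and Pax3 gave a rho of 0.0339 and 0.0162. Pairs with Tfap2a lay between 0.00197 and 0.0585, too low at these counts to read. In sparse counts even the larger values are a description and no more. Pax3 was found in 84.6% of high pigment cells with Mitf and 76.0% of those without it, against 88.0% and 84.7% in the low pigment library. Sox10 was found in 75.8% of high pigment cells with Mitf and 68.3% of those without it, against 57.9% and 48.5% in the low pigment library.

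**Figure D4:**
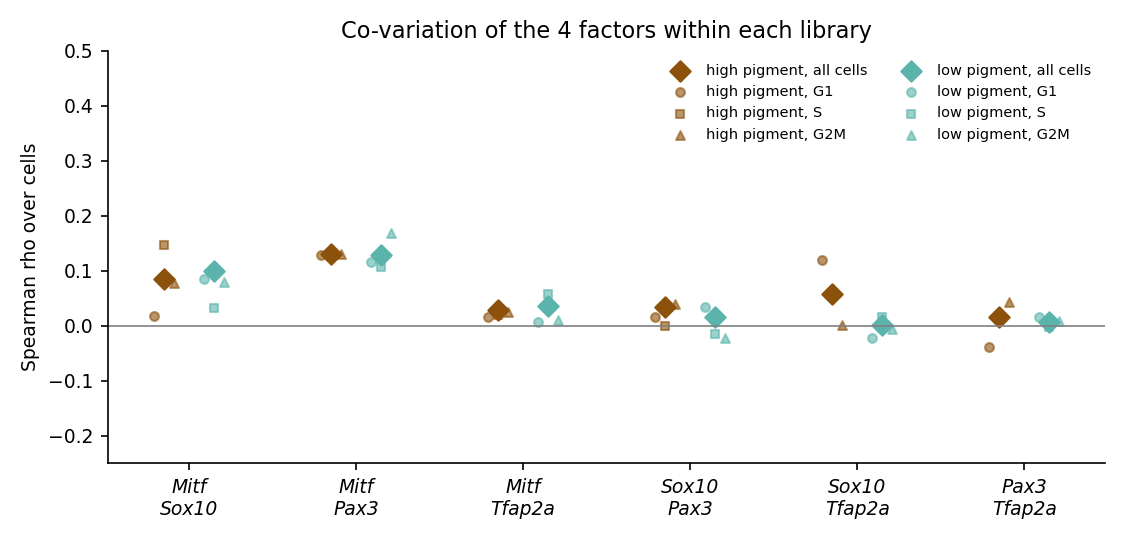
Spearman rho over thinned cells (vertical axis) for the 6 pairs of factors, within the high pigment (brown) and low pigment (teal) library. Diamonds are all cells, and circles, squares and triangles are G1, S and G2M cells. Mitf with Pax3 is at 0.131 and 0.129, and no pair passes 0.17.

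Likeness over cells was taken as the smaller in size of the 2 libraries' rho, where they had the same sign, over 3047 genes averaging 50 CPM or more. Most like Mitf were Rictor (0.151 in high pigment and 0.157 in low pigment cells), a subunit of mTOR complex 2, Klf4 (0.151 and 0.151), Dst (0.167 and 0.132) and Pax3. Siva1 (-0.138 and -0.122) and Egr1 (-0.117 and -0.156) ran the other way. For Sox10 the nearest genes were Mitf, Ube2c (0.141 and 0.0831), Mat2a (0.0828 and 0.0922) and the pigment enzyme Dct (0.0734 and 0.0798), and the most opposite were the S phase genes Uhrf1 (-0.0898 and -0.114) and Nasp (-0.0809 and -0.0899). For Pax3 they were Mitf, the ferritin gene Ftl1 (0.120 and 0.140), Id2 (0.107 and 0.114) and the proliferation gene Mki67 (0.142 and 0.104), with Lgals1 and Nme2 most opposite. Mitf thus ranked 1st for both Sox10 and Pax3 among 3046 genes, while Sox10 ranked 47th for Mitf. The nearest genes to Tfap2a, Phlda1, Marcks, Mindy3 and Gar1, had a rho of at most 0.0805, and Lsm6 and Dnajc21 were most opposite. Genes of long genomic span tended to go with Mitf. Across genes, which are not independent, the rho of span with likeness to Mitf was 0.492 in high pigment and 0.387 in low pigment cells, against 0.121 and 0.0970 for Sox10. The part of gene span in the Mitf and Pax3 values was not tested, and that of Pax3 with span was 0.445 and 0.349.

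Pigment genes, the best known targets of MITF, were higher in part. Of 18, 17 were measured, 8 were called higher and 1 lower in high pigment cells, beside 10.9% and 23.4% of measured genes, and the median log2 ratio over the list was 0.32. The melanosome linker gene Mlph had 165 CPM in high pigment and 94.2 CPM in low pigment cells, a ratio of 1.75. Tspan10 had a ratio of 1.48, the cystine transporter gene Slc7a11 1.45, Rab27a, whose product binds melanophilin, 1.43, and Mlana 1.39. Dct, which encodes dopachrome tautomerase, had 8011 CPM in high pigment and 5856 CPM in low pigment cells, a ratio of 1.37, and Trpm1 had a ratio of 1.33. Cited1, at 154 CPM in high pigment and 123 CPM in low pigment cells, lay just inside the limit, and Tyrp1, at 2286 and 1832 CPM, just outside it. Not called were also Slc45a2 (1.14), Atp7a (1.13), Gpnmb (1.12) and Gpr143 (1.05). Tyr, the rate-limiting enzyme of melanin synthesis, had 122 CPM in high pigment and 126 CPM in low pigment cells, a ratio of 0.971 (0.928 to 1.02). Slc24a5 and Pmel had ratios of 0.899 and 0.898. Mc1r, the melanocortin receptor that raises cyclic AMP, was 1.43-fold lower in high pigment cells. Oca2, under the measured level, had 86 UMIs in high pigment and 66 in low pigment cells. No pigment gene reached the ratio of Mitf itself.

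From cell to cell, the sum of the pigment genes correlated only weakly with Mitf. This sum was 17123 CPM over all high pigment cells, of which Dct gave 8011. In high pigment cells it was 15342 CPM in the 208 cells with 0 Mitf UMIs after thinning, 17333 CPM at 1 to 2, 17371 at 3 to 5 and 17214 at 6 or more. In low pigment cells it was 12774, 13643, 14612 and 14292 CPM over the same steps. So the pigment gene share of UMIs was lower in the 74 low pigment cells with 6 or more Mitf UMIs than in the high pigment cells with 0. This compares shares and not amounts per cell, as the median depth was 15601 UMIs in these low pigment cells and 12610 in those high pigment cells. Mitf itself had 770 CPM in these low pigment cells and 86.4 CPM in those high pigment cells. The rho of Mitf with the sum was 0.0636 in high pigment and 0.138 in low pigment cells, that of Sox10 0.0491 and 0.0776, and that of Pax3 0.00923 and 0.0184. Single genes differed: Mlph had a rho with Mitf of 0.170 in high pigment and 0.101 in low pigment cells, Dct 0.0800 and 0.184, and Tyr 0.108 and 0.0832. Mlana had -0.0861 and -0.0297, although it was higher in the high pigment library. In low pigment cells Dct had 5252, 5933, 6502 and 6564 CPM over the 4 Mitf steps. The G1 share of low pigment cells was 30.5%, 40.0%, 48.8% and 54.1% over the same steps, and its part was not tested.

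**Figure D5:**
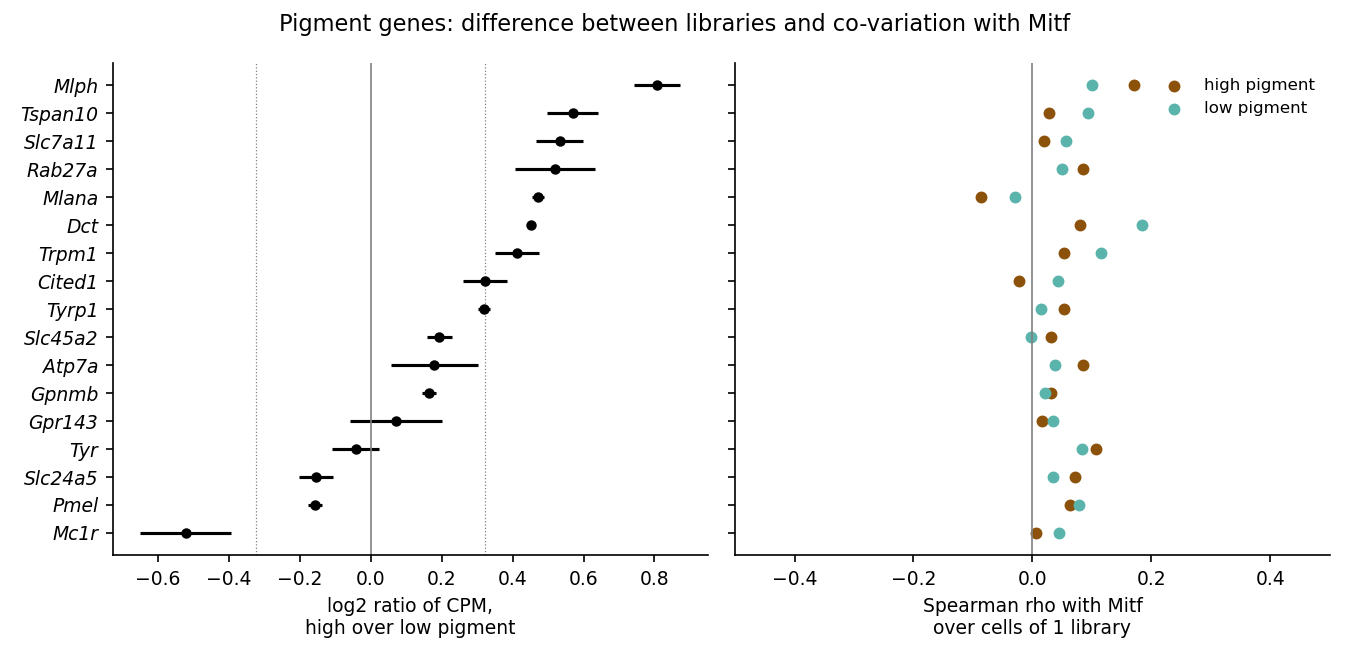
Left, log2 ratio of CPM, high over low pigment, of the 17 measured pigment genes with 95% counting intervals and dotted lines at 25% higher and 20% lower. Right, their Spearman rho with Mitf over thinned high pigment (brown) and low pigment (teal) cells. Mlph has the highest ratio and Mc1r the lowest, and Mlana lies below 0 on the right.

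A list of upstream inputs of Mitf, which leaves out Sox10 and Pax3, did not move up with it. The list holds inputs that raise Mitf and inputs that hold it back, so its counts give no net direction of input. Of 32 upstream inputs, such as receptors, kinases and CREB cofactors, 21 were measured, 0 were called higher and 7 lower in high pigment cells, beside 10.9% and 23.4% of measured genes. Their median log2 ratio was -0.28, against -0.08 over measured genes. The largest ratios were those of Gsk3b (1.21), Hif1a (1.17) and Crtc3 (1.15). Sik1, a kinase that holds back CREB coactivators and is itself a CREB target, had 20.6 CPM in high pigment and 122 CPM in low pigment cells, 5.93-fold lower. Tcf7l2, a Wnt effector, was 1.52-fold lower. Among partners and cofactors, 19 of 22 were measured, 3 were called higher and 5 lower, shares near those of all measured genes, and their median log2 ratio was -0.18. The higher were Ppargc1a (234 CPM in high pigment and 101 in low pigment cells, ratio 2.32), Crebbp (1.44) and Arid1a (1.32), and the lowest were Chd7 (2.09-fold lower) and Usf1 (1.43-fold lower).

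Of 25 MITF targets outside pigmentation, 16 were measured, 6 were called higher and 3 lower, beside 10.9% and 23.4% of measured genes, and their median log2 ratio was 0.24. Ppargc1a, a coactivator of mitochondrial genes, also stands in this list, and the cell cycle inhibitor Cdkn1a (ratio 1.86) and the survival gene Bcl2 (1.55) had the next largest ratios. From cell to cell Cdkn1a ran against Mitf, with a rho of -0.183 in high pigment and -0.0780 in low pigment cells. Ppargc1a had 0.127 and 0.164, and Bcl2 0.0255 and 0.0429. Gmpr and Scd1 were 1.45-fold and 1.43-fold lower. Of 18 SOX10 targets, 11 were measured, 2 were higher, which were Mitf itself and Dct, and 4 were lower, with a median log2 ratio of -0.17. The next, S100b, had a ratio of 1.24, while the myelin gene Mbp was 1.54-fold and Nes 1.33-fold lower. Of 15 AP-2α targets, 6 were measured, 1 was higher (Cdkn1a) and 2 were lower (Mc1r and Mcam), with a median log2 ratio of -0.21. Hmga1 and Erbb3 lay at 1.17 and 0.891. Of 24 other neural crest factors, 12 were measured, 2 were higher (Sox9, 1.79, and Id2, 1.59) and 4 were lower, among them Sox11 (2.25-fold) and Ets1 (1.58-fold). Tbx2 had a ratio of 1.18, and the median log2 ratio was -0.05. With 6 to 12 measured genes in each, the counts for these 3 lists are too small to set apart from the 10.9% and 23.4% of all measured genes.

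Paralogues did not move with the 4 factors as a group. Tfe3, which encodes a relative of MITF with the same binding site, had 18.8 CPM in high pigment and 31.6 CPM in low pigment cells, 1.68-fold lower. Tfeb, under the measured level, had 154 UMIs in high pigment and 421 in low pigment cells. Sox9 had 48.7 CPM in high pigment and 27.2 CPM in low pigment cells, and Sox8 had 8 and 28 UMIs. Tfec had 1 UMI in each library, Pax7 and Tfap2b had 0 in each, and Tfap2c, Tfap2d and Tfap2e had at most 1. A total of 3 UMIs, the limit used for detection, was 0.104 CPM in high pigment and 0.0925 CPM in low pigment cells.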

How the data were processed

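Whole-number UMI counts per gene and barcode, and a cell table with sort, phase, cluster and mitochondrial percent, were used as the authors deposited them. Per the submitters' processing notes, Cell Ranger 6.1.2 and build mm10 were used. The sources used here do not say whether aggregating the libraries equalised their depth. The table holds 4036 of 5818 barcodes, and 2 barcode sequences were shared by the libraries among deposited barcodes and 0 in the table. Counts were summed per library and scaled to CPM, with exact Poisson intervals for levels, exact conditional binomial intervals for ratios and exact Clopper-Pearson intervals for shares. Cells were thinned to 7500 UMIs without replacement. No doublet caller was run, all table cells were kept, and leaving out cells above the 95th percentile of UMIs was an alternative. Calls were made by size alone, at 25% higher or 20% lower. The members and lists were chosen with earlier results of these data known. Named genes were the 4 factors, their paralogues, the pigment genes in full, the 3 largest and 2 smallest ratios of other lists, and the 4 most like and 2 most opposite genes per factor. Some other values are given as well and were chosen after they were seen, among them the cells of clusters 0 and 3 in G1 and the immediate early bins. Some genes looked up are not reported here. Interval coverage was tested on simulated Poisson counts with no variation between cells, which is the model the intervals assume. It therefore does not show their coverage where cells vary. Correlations were tested on simulated Poisson counts of cells with varying rates. Python 3.11.15, numpy 2.4.6, scipy 1.17.1, pandas 2.3.3 and matplotlib 3.10.9 were used.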

Additional observations from a re-analysis of the deposited data

Results flagged for a closer look

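Barcodes that the authors left out of their cell table also carried the 4 factors, above the limit that a count of 0 allows. Mitf had 528 CPM in the 696 high pigment barcodes outside the table and 153 CPM in the 1086 low pigment ones. Sox10 had 170 CPM in the high pigment and 94.7 CPM in the low pigment barcodes outside the table. Tfap2a had 51.9 CPM in the high pigment and 22.2 CPM in the low pigment barcodes, and Pax3 had 260.1 and 223 CPM. At least 50% of UMIs were mitochondrial in 5 of the high pigment and 434 of the low pigment barcodes. Without them the low pigment levels outside the table were 180.0 CPM for Mitf, 112 for Sox10, 26.6 for Tfap2a and 264 for Pax3.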

How the results depend on the processing

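No log2 ratio of the 4 factors changed sign under any alternative run. With the median measured gene at a ratio of 1, they were 1.27 for Mitf, 1.00 for Sox10 and -0.10 for Pax3. As UMIs per cell they were 0.85, 0.58 and -0.52, and 0.25 for Tfap2a. With equal weight to the phases they were 1.14, 0.83 and -0.22 for Mitf, Sox10 and Pax3. In G1 cells they were 1.00, 0.76 and -0.28, and 0.41 for Tfap2a. As a mean over bins of like immediate early UMIs, chosen after seeing the data, they were 1.10, 0.46 and -0.13, and 0.34 for Tfap2a. In all, 18 of 32 such values moved by more than the counting interval, and 14 by less. Without thinning, rho of Mitf and Pax3 was 0.156 in high pigment and 0.198 in low pigment cells. At 1.5-fold, a size reached by 3.25% of measured genes upward and 8.08% downward, 1 pigment gene was higher and 0 were lower, and 2 upstream inputs were lower. No paired analysis was possible because each group is 1 library and the labels share no replicate numbers. Depth limits Tfap2a most, and no value here separates the sort from its single preparation.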
